A study of Rattus norvegicus with 18 samples.

Results

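Ptprc, Cd68, Cd14 and Cd74, genes used as markers of leukocytes and macrophages, were followed in rat hearts after doxorubicin with and without AICAR. The 4 genes were chosen by name and Ensembl identifier out of 32545 genes in the table, and all 4 lay among the 14732 genes that passed a filter on low values (1 TPM or more in 6 or more of 18 libraries). TPM, transcripts per 1000000, is a length-corrected share of a library's reads. The gene names are those given with the identifiers when the genes were chosen; the table itself holds identifiers alone, and the reference used here paired 0 of them with names. The genes are ENSRNOG00000000655 (Ptprc), ENSRNOG00000037563 (Cd68), ENSRNOG00000017819 (Cd14) and ENSRNOG00000018735 (Cd74).

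The hearts came from male Wistar rats, an outbred laboratory strain, weighing 250 g at the start. Saline rats (6) received 5 weekly intravenous injections of saline. DOX+saline rats (6) received 5 weekly intravenous injections of doxorubicin, an anthracycline that poisons topoisomerase II and injures heart muscle, at 3 mg/kg per week, together with subcutaneous saline. DOX+AICAR rats (6) received the same doxorubicin course together with subcutaneous AICAR, a nucleoside that cells turn into an AMP mimic activating the kinase AMPK, at 0.5 g/kg. Each animal gave 1 library of polyadenylated RNA from heart tissue. Libraries held 20.57 to 31.32 M reads (M, 1000000) assigned to genes, as recovered from the TPM values. Saline animals are numbered 51 to 56, while DOX+saline animals are 1 to 6 and DOX+AICAR animals 7 to 12. If this numbering reflects separate cohorts, a difference between them and an effect of doxorubicin cannot be told apart in the comparisons with saline. No rats received AICAR alone, and the labels do not say which part of the heart was taken.

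Ptprc encodes CD45, a membrane tyrosine phosphatase of all nucleated blood cells that sets the threshold of antigen receptor signalling. Cd68 encodes a heavily glycosylated protein of lysosomes and endosomes that is abundant in macrophages. Cd14 encodes a co-receptor that hands bacterial lipopolysaccharide to the Toll-like receptor 4 complex and is found mainly on monocytes and macrophages. Cd74 encodes the invariant chain, which holds MHC class II molecules until they reach endosomes, where peptides are loaded; it is made by antigen-presenting cells and, after interferon gamma, by other cells such as endothelium. The heart holds resident macrophages, and blood monocytes can enter it after injury.

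The promoters of Ptprc and Cd68 are shown because these genes rose together and carry the differences between animals and groups described below. Each covers 250 bases before to 50 bases after the gene's start in RefSeq, on build GRCr8, while the authors' reads were aligned to Rnor_6.0. Capitals mark GAGGAA or its complement TTCCTC, the core that PU.1, a transcription factor of myeloid cells, and other ETS factors can bind. The Ptprc window lies at chr13:52259697-52259996 on the minus strand and the Cd68 window at chr10:54882392-54882691 on the minus strand.
Ptprc: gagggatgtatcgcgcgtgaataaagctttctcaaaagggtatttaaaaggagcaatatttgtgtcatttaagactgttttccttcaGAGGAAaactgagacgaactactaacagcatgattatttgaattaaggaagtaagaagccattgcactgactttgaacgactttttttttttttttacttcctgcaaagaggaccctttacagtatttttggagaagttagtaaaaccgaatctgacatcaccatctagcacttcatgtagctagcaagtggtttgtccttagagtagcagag
Cd68: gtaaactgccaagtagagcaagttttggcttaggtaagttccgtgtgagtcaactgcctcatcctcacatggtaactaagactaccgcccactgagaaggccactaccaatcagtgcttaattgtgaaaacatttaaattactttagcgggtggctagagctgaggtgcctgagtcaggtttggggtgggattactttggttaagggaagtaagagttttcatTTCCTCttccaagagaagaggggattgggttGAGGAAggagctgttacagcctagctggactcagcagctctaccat

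GAGGAA occurred in the windows of all 4 genes, searched on both strands, and in 27.6% of 33469 RefSeq rat promoters of that length. Ptprc held 1 match, Cd68 held 2, Cd14 held 2 and Cd74 held 1. Cd68 was the only one of the 4 with the AP-1 motif TGANTCA (7.33% of promoters), which it held 2 times, and with CTGATTGG, the Y box of MHC class II promoters (3.50%). CCAAT occurred in Cd68, Cd14 and Cd74 (37.5% of promoters), and 1 of its matches in Cd68 lies wholly inside the Y box match. The loose pattern TTNCNNNAA occurred in all 4 (38.2%). TATAAA (14.2%), GCCNNNGGC (15.1%) and CACGTG (6.42%) occurred in none of the 4. A match describes letters in this window and was not tied to the expression values.

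In saline hearts Cd74 was by far the most abundant of the 4, with a mean of 754 ± 33.2 TPM (SD, n = 6), rank 190 among all genes. Cd14 averaged 9.68 ± 1.74 TPM, Cd68 9.01 ± 0.853 TPM and Ptprc 5.18 ± 0.253 TPM. Cd14 and Cd68 overlapped animal by animal and their order within an animal varied, whereas Ptprc lay below both in all 6 saline animals. After doxorubicin Cd74 was again far above the others in both groups, and Cd68 and Cd14 again overlapped. TPM is corrected for length, so these levels can be set side by side across genes; the recovered lengths were 5050 bp for Ptprc, 1241 bp for Cd68, 1698 bp for Cd14 and 1391 bp for Cd74.

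Ptprc, Cd68 and Cd14 rose in DOX+saline hearts against saline hearts, each about as much as the others, and Cd74 did not pass the test. Thus 3 of 4 genes were called higher (limma, adjusted p below 0.05 over all genes tested), where 38.0% of all genes tested were (27.6% after median-of-ratios scaling, 23.2% after quantile normalization, each with 3 of these 4). Of all calls, 65.5% were higher on the values as deposited, 48.0% after median-of-ratios scaling, 41.0% after quantile normalization. The same 3 genes did not overlap between the groups, against 21.1% of all genes that were higher without overlap. The median log2 change of the 4 genes was 1.45, beside 0.10 over all genes tested. More cells of a type and more RNA per cell cannot be told apart in tissue RNA.

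Ptprc, the marker of all leukocytes, stood at 5.32, 4.95, 5.47, 5.22, 4.80 and 5.33 TPM in saline animals 51 to 56, and at 28.6, 9.15, 23.1, 9.90, 9.61 and 27.1 TPM in DOX+saline animals 1 to 6. The saline animals were nearly identical, and all 6 DOX+saline animals lay above them, with animals 1, 3 and 6 far above animals 2, 4 and 5. The log2 change was 1.46 (SE 0.25, 95% interval 0.94 to 1.97, limma adjusted p = 7.78e-05), a 2.74-fold rise on the log2(TPM + 1) scale. Of the genes tested, 3.03% had a larger increase.

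Cd68, the lysosomal marker of macrophages, ranged from 8.20 TPM (animal 52) to 10.5 TPM (animal 53) in saline hearts. In DOX+saline animals 1 to 6 it stood at 38.6, 19.2, 26.7, 23.5, 24.8 and 37.8 TPM. All 6 were above every saline animal, with animals 1 and 6 highest and animal 2 lowest. The log2 change was 1.52 (SE 0.14, 95% interval 1.23 to 1.81, limma adjusted p = 1.18e-07). This was a 2.86-fold rise of TPM + 1.

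Cd14, the lipopolysaccharide co-receptor, ranged from 7.47 TPM (animal 51) to 11.8 TPM (animal 55) in saline hearts. In DOX+saline animals 1 to 6 it stood at 36.6, 23.8, 22.5, 29.3, 22.2 and 34.1 TPM. The groups did not overlap, and animals 1 and 6 were again highest, while animal 3, high for Ptprc, was next to lowest for Cd14. The log2 change was 1.44 (SE 0.20, 95% interval 1.02 to 1.85, limma adjusted p = 1.05e-05). This was a 2.70-fold rise of TPM + 1.

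Cd74, the invariant chain, stood at 760, 754, 723, 742, 816 and 732 TPM in saline animals 51 to 56, and at 872, 500.0, 850.3, 643, 600.2 and 813 TPM in DOX+saline animals 1 to 6. The DOX+saline animals fell on both sides of the saline range, with animals 1 and 3 above all saline animals and animals 2, 4 and 5 below all of them. The log2 change was -0.11 (SE 0.12, 95% interval -0.35 to 0.13, limma adjusted p = 0.436), so the interval leaves out a rise of the size seen in the other 3 genes. The sign of this small difference turned with array weights (log2 change 0.03, limma adjusted p = 0.773), and with median-of-ratios factors it was -0.23 (limma adjusted p = 0.0812).

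**Figure D1:**
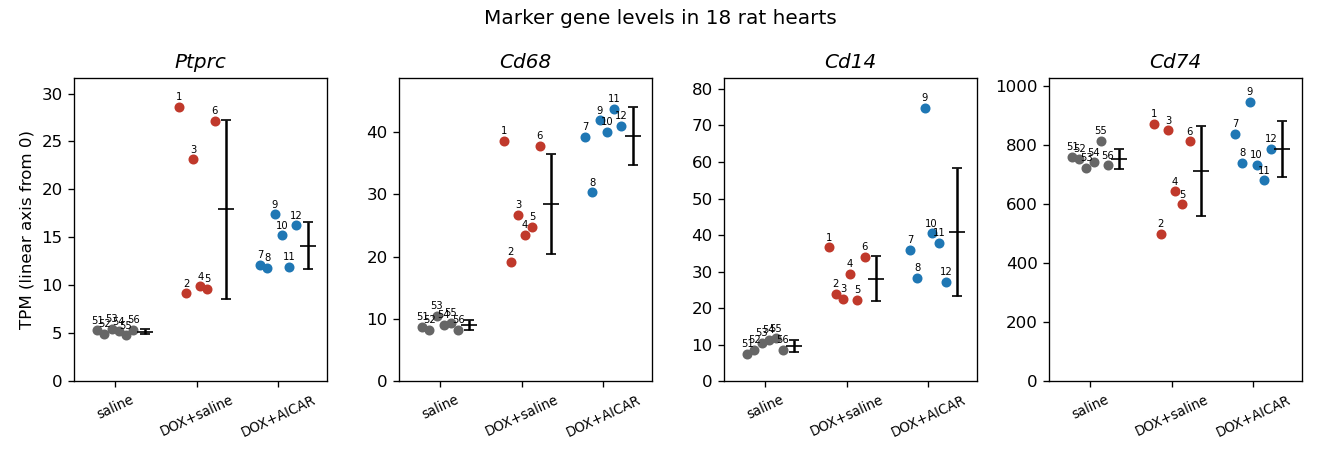
TPM of each gene (linear axes from 0) in the 18 hearts, 1 point per animal with its number, by group; the bar beside each group is the mean ± SD (n = 6). Ptprc, Cd68 and Cd14 lie above the saline range in all 12 doxorubicin hearts, and Cd74 does not.

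All 4 genes varied more among DOX+saline hearts than among saline hearts, a difference in spread that was not tested. The coefficient of variation of Ptprc was 4.88% for saline, 52.1% for DOX+saline and 17.5% for DOX+AICAR, with 284 to 2091 reads per library. For Cd74 it was 4.40%, 21.5% and 11.96%, and for Cd68 9.48%, 28.0% and 11.9%. Cd14 varied by 17.96% for saline, 22.2% for DOX+saline and 43.0% for DOX+AICAR.

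Within DOX+saline, the same 3 animals (1, 3 and 6) held the highest values of Ptprc, Cd68 and Cd74. Ptprc was 23.1 to 28.6 TPM in these and 9.15 to 9.90 TPM in animals 2, 4 and 5. Cd74 was 813 to 872 TPM and 500.0 to 643 TPM in the same animals, and Cd68 was 26.7 to 38.6 TPM and 19.2 to 24.8 TPM. Cd14 did not follow this order, since animal 3 had 22.5 TPM and animal 4 had 29.3 TPM. Depth did not separate them, at 28.5, 28.0 and 24.9 M reads in animals 1, 3 and 6 and 27.2, 25.7 and 29.9 M in animals 2, 4 and 5. Ptprc and Cd74 of these 2 sets of animals thus lie in separate clusters, while Cd68 and Cd14 show no such gap. Ptprc with Cd74 had Pearson r = 0.93 (exact permutation p = 0.0319, adjusted p = 0.144, n = 6), which rests on the clusters. Ptprc with Cd68 had r = 0.89 (exact permutation p = 0.00417, adjusted p = 0.075). Without the 2 animals farthest from the median of Ptprc these were 0.91 and 0.67.

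**Figure D2:**
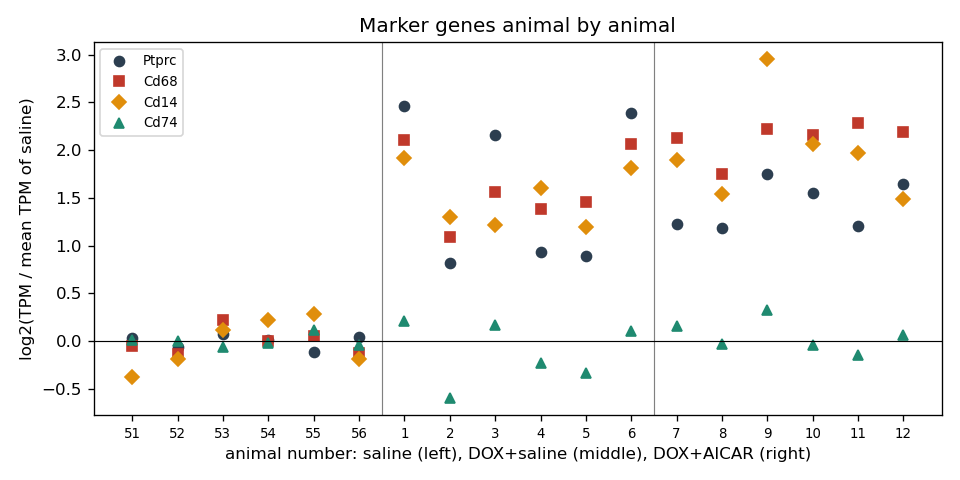
log2 of each gene's TPM over its mean in saline hearts, for each animal. In DOX+saline, Ptprc of animals 1, 3 and 6 lies above Cd68 and Cd14 of the same heart, whereas in animals 2, 4 and 5 and in all 6 DOX+AICAR animals but animal 12 it lies below both.

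In no group did the genes move together past the threshold. Of 18 correlations computed on log2(TPM + 1) (6 pairs in 3 groups), 0 passed an exact permutation test after Benjamini-Hochberg adjustment. This count includes DOX+saline, whose r values were all positive and held the largest of the 18. Ptprc and Cd74 had the strongest relation in saline, and it was negative (Pearson r = -0.85, exact permutation p = 0.0236, adjusted p = 0.144; Spearman rho = -0.83, exact permutation p = 0.0583, adjusted p = 0.263; n = 6). The value was -0.59 without the 2 animals farthest from the median of Ptprc. Ptprc varied by 4.88% among saline animals, no more than the 5.37% given by read counting alone, so this r has little spread to rest on. In DOX+AICAR the same pair had r = 0.58 (exact permutation p = 0.214, adjusted p = 0.428, n = 6) and rho = 0.60 (exact permutation p = 0.242, adjusted p = 0.594), and r = -0.07 without the 2 farthest animals, so the relation rests on those animals.

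In DOX+AICAR hearts against saline hearts the same 3 genes rose and Cd74 again did not pass the test. Of the 4 genes, 3 were called higher (limma), where 34.8% of all genes tested were (25.5% after median-of-ratios scaling, 21.8% after quantile normalization), and the same 3 did not overlap, where 22.9% of all genes were higher without overlap. Of all calls, 65.4% were higher as deposited, 47.4% after median-of-ratios scaling, 40.5% after quantile normalization. This comparison shares its saline libraries with the one above. The median log2 change of the 4 genes was 1.59, beside 0.09 over all genes tested.

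Cd68 and Cd14 had the largest changes of the 4 here, with intervals that overlap. Cd68 stood at 39.3, 30.3, 41.9, 40.1, 43.7 and 40.9 TPM in DOX+AICAR animals 7 to 12, all above the saline maximum of 10.5 TPM and, apart from animal 8, close together. The log2 change against saline was 2.01 (SE 0.14, 95% interval 1.72 to 2.30, limma adjusted p = 1.02e-08). This was a 4.02-fold rise of TPM + 1. Of the genes tested, 1.10% had a larger increase.

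Cd14 stood at 35.9, 28.3, 74.8, 40.5, 38.0 and 27.1 TPM in DOX+AICAR animals 7 to 12, with animal 9 far above the rest. Its log2 change against saline was 1.90 (SE 0.20, 95% interval 1.48 to 2.32, limma adjusted p = 7.19e-07) and 1.71 without animal 9. Ptprc stood at 12.1, 11.8, 17.4, 15.2, 11.95 and 16.3 TPM in the same animals, and every one was above the saline maximum of 5.47 TPM. Its log2 change was 1.28 (SE 0.25, 95% interval 0.76 to 1.79, limma adjusted p = 0.000308). That SE shares 1 spread with the DOX+saline animals. On the log2(TPM + 1) scale the SD of Ptprc was 0.06 for saline, 0.755 for DOX+saline and 0.234 for DOX+AICAR. With only the 12 libraries compared, the SE was 0.095 and the interval 1.07 to 1.48 (limma adjusted p = 3.56e-07).

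Cd74 stood at 840, 740.3, 946, 735, 681 and 788 TPM in DOX+AICAR animals 7 to 12, around the saline range of 723 to 816 TPM. Animals 7 and 9 were above that range and animal 11 below it. The log2 change was 0.06 (SE 0.12, 95% interval -0.19 to 0.30, limma adjusted p = 0.708) and -0.06 with median-of-ratios factors.

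**Figure D3:**
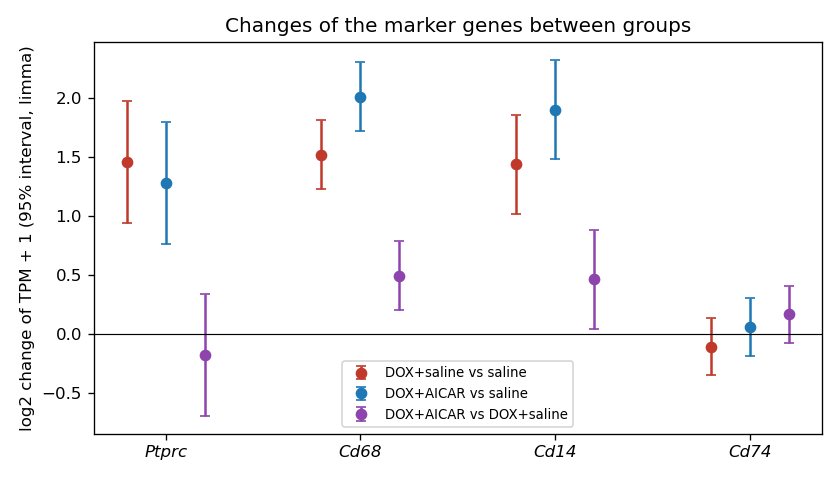
log2 change (of TPM + 1) of each gene in the 3 comparisons with its 95% interval from limma. The intervals of Ptprc, Cd68 and Cd14 against saline lie above 0, and those of Cd74 include 0 in all 3 comparisons.

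AICAR given with doxorubicin was compared with doxorubicin alone to ask what AICAR changed in these hearts. Of the 4 genes, 0 were called in either direction (limma), where 1.33% of all genes tested were, and 0 of 4 were free of overlap, where 1.51% of all genes were. At an unadjusted p below 0.05 there were 2 of 4, Cd68 and Cd14, where 17.6% of all genes tested passed, and voom on the recovered reads also called 0 of 4. The number of genes called in this comparison moved between 16 and 1058 with the way it was fitted.

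Cd68 was 28.4 ± 7.97 TPM among DOX+saline and 39.4 ± 4.69 TPM among DOX+AICAR animals (SD, n = 6), and 5 of 6 DOX+AICAR animals lay above every DOX+saline animal. The difference did not pass the threshold (log2 change 0.49, SE 0.14, 95% interval 0.20 to 0.78, limma adjusted p = 0.0805). Over the alternatives its log2 change ran from 0.25 with array weights to 0.58 without DOX+saline animal 1, and its limma adjusted p from 0.0508 to 0.269. Of all genes tested, 1.55% had a larger increase.

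Cd14 was 28.1 ± 6.23 TPM among DOX+saline and 40.8 ± 17.5 TPM among DOX+AICAR animals, and 3 of 6 DOX+AICAR animals lay above every DOX+saline animal. The difference did not pass the threshold (log2 change 0.46, SE 0.20, 95% interval 0.04 to 0.88, limma adjusted p = 0.238). Without DOX+AICAR animal 9, the highest, the log2 change was 0.27 (limma adjusted p = 0.397).

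Ptprc was 17.9 ± 9.34 TPM among DOX+saline and 14.1 ± 2.47 TPM among DOX+AICAR animals. All 6 DOX+AICAR animals lay in the gap between DOX+saline animals 2, 4 and 5 below and animals 1, 3 and 6 above. The log2 change was -0.18 (SE 0.25, 95% interval -0.70 to 0.34, limma adjusted p = 0.75), an interval wide enough to hold both a fall and a rise. It was -0.54 with array weights (limma adjusted p = 0.144) and -0.02 without DOX+saline animal 1 (0.979). Cd74 was 713 ± 153 TPM among DOX+saline and 788 ± 94.3 TPM among DOX+AICAR animals (log2 change 0.17, SE 0.12, 95% interval -0.08 to 0.41, limma adjusted p = 0.476), and 0.02 (log2) apart with array weights.

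Ratios of 2 genes within a heart do not depend on the fixed total of TPM, and they show whether the genes changed by unequal amounts. For 6 pairs in 3 comparisons, 18 two-sided exact permutation tests were run over all assignments of the 12 animals compared, with Benjamini-Hochberg adjustment, and 8 passed. No p below 0.00216 is possible with 6 animals against 6.

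Cd74 fell relative to each of the other 3 genes in both doxorubicin groups, where those 3 rose and Cd74 itself did not pass the test. The Cd74 ratio tests against saline thus largely restate the single-gene results and are not separate evidence. The Cd74/Ptprc ratio was 146 ± 13.4 for saline, 46.6 ± 16.0 for DOX+saline and 56.7 ± 8.20 for DOX+AICAR (SD, n = 6). Its lowest saline value was 132 and its highest value after doxorubicin 69.2, so the groups were far apart. The mean log2 ratio differed from saline by -1.72 in DOX+saline and by -1.37 in DOX+AICAR (exact permutation p = 0.00216, adjusted p = 0.00557 in both, in 6 of 6 animals each). The same held for Cd74/Cd68 (-1.73 and -2.07) and Cd74/Cd14 (-1.64 and -1.95), each without overlap and with the same p-values.

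Cd68 rose relative to Ptprc in DOX+AICAR, against saline and against DOX+saline. The Cd68/Ptprc ratio was 1.74 ± 0.162 for saline, 1.82 ± 0.601 for DOX+saline and 2.84 ± 0.497 for DOX+AICAR. The log2 ratio in DOX+AICAR was 0.69 above saline, without overlap (exact permutation p = 0.00216, adjusted p = 0.00557), and 0.69 above DOX+saline, a 1.61-fold difference (exact permutation p = 0.0108, adjusted p = 0.0244), with overlap. The last call was lost without DOX+AICAR animal 7 (adjusted p = 0.0633, exact permutation), 10 (0.0536) or 11 (0.0682).

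Animal by animal, the DOX+saline ratios of Cd68 to Ptprc were 1.35, 1.15 and 1.39 in animals 1, 3 and 6, below every saline animal (1.55 to 1.95). They were 2.10, 2.38 and 2.58 in animals 2, 4 and 5, above every saline animal. The DOX+AICAR ratios were 3.24, 2.57, 2.40, 2.63, 3.66 and 2.52 in animals 7 to 12, so that only DOX+saline animal 5 reached into their range. The mean difference of 0.01 (log2) between DOX+saline and saline (exact permutation p = 0.978, adjusted p = 0.978) therefore stands between animals on both sides.

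Cd14 and Cd68 did not change relative to each other past the threshold. The Cd14/Cd68 ratio was 1.07 ± 0.153 for saline, 1.01 ± 0.183 for DOX+saline and 1.03 ± 0.389 for DOX+AICAR. Mean log2 ratios differed by -0.09 between DOX+saline and saline (exact permutation p = 0.498, adjusted p = 0.64), by -0.12 between DOX+AICAR and saline (exact permutation p = 0.587, adjusted p = 0.704) and by -0.03 between the doxorubicin groups (exact permutation p = 0.95, adjusted p = 0.978). The Cd14/Ptprc ratio was 0.57 (log2) higher in DOX+AICAR than in saline, just short of the threshold (exact permutation p = 0.0281, adjusted p = 0.0506). Between the doxorubicin groups it was 0.66 higher in DOX+AICAR (exact permutation p = 0.0693, adjusted p = 0.113), and Cd74/Cd68 was 0.34 lower there (difference -0.34, exact permutation p = 0.026, adjusted p = 0.0506).

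**Figure D4:**
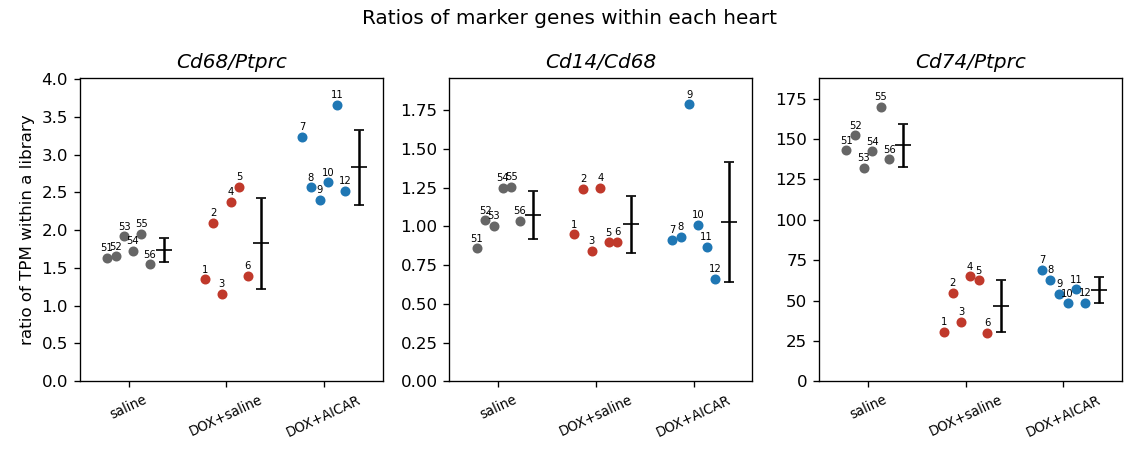
Ratio of the TPM of 2 genes within each heart (linear axes from 0), 1 point per animal with its number, with mean ± SD (n = 6) beside each group. Cd74/Ptprc is lower in all 12 doxorubicin hearts than in any saline heart, Cd68/Ptprc is highest in DOX+AICAR, and Cd14/Cd68 overlaps across the 3 groups.

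Among the other genes tested, the 2 whose pattern was most like that of the 4 markers, by the mean Pearson r of log2(TPM + 1) over 18 libraries, were ENSRNOG00000032844 and ENSRNOG00000010319. Libraries of 3 groups share their group means, and the DOX+saline animals lie in clusters for Ptprc and Cd74, so these values are descriptions that rest on both. ENSRNOG00000032844 had a mean r of 0.80, made of 0.93 with Ptprc, 0.95 with Cd68, 0.91 with Cd14 and 0.43 with Cd74. After group means were subtracted, its r was 0.87 with Ptprc, 0.81 with Cd68, 0.54 with Cd14 and 0.93 with Cd74. It averaged 35.3 ± 3.47 TPM for saline, 98.5 ± 41.6 TPM for DOX+saline and 117 ± 25.5 TPM for DOX+AICAR (SD, n = 6).

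ENSRNOG00000010319 had a mean r of 0.80. It averaged 25.9 ± 2.41 TPM for saline, 55.1 ± 20.9 TPM for DOX+saline and 67.3 ± 14.3 TPM for DOX+AICAR. Among the 4 markers themselves, r over the 18 libraries was highest for Cd68 with Cd14 (0.94) and Cd68 with Ptprc (0.88), and it was 0.35 for Ptprc with Cd74. The order changed after group means were subtracted. Ptprc with Cd74 was then highest (0.85), Cd68 with Ptprc was 0.79 and Cd68 with Cd14 was 0.53. These values still include the DOX+saline clusters.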

How the data were processed

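RNA of 18 rat hearts was measured by strand-specific, paired-end sequencing of polyadenylated RNA. Per the submitters' processing notes, bcl2fastq 2.17.1.14, HISAT2, featureCounts and Subread 1.5.0 were used with build Rnor_6.0; for the annotation release and strand setting: not given in the sources used here. The authors' deposited values are TPM, summing to 1000000 per library. For all 25878 genes above 0, the smallest whole reads that fit the TPM values were taken (tolerance 0.001 reads). A gene seen in 1 library was thus set to 1 read, and a factor common to all counts of a gene would be lost. Gene lengths came out whole (within 0.05 bp) for 100% of the 14838 genes checked. These reads have no molecular identifiers and were used for depth and voom.

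limma 3.58.1 (R 4.3.3) with a mean-variance trend was fitted to log2(TPM + 1) of 14732 genes in all 18 libraries, with two-sided tests, Benjamini-Hochberg adjustment over all genes and a threshold of 0.05. This assumes equal spread in the groups, whereas the SD of Ptprc differed widely between them. Changes of low genes are understated. Ratios and correlations used exact permutation tests. The test and the read recovery were tested on simulated data. The 4 genes and the motifs were chosen with earlier results of these data known. The other genes named are the 2 with the highest mean r with the 4. Lists of other leukocyte, macrophage, lymphocyte, neutrophil, cardiomyocyte, fibroblast and endothelial markers had been set by symbol and were not used here, since 0 identifiers matched names (reference of 47357 genes), so the tissue was not checked against markers. Alternatives were other pseudocounts, filters, scalings, library weights and subsets, and each animal left out.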

Additional observations from a re-analysis of the deposited data

Results flagged for a closer look

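The distance of the highest and lowest animal from the rest of the group was examined for 4 genes and 6 ratios in 3 groups, 30 sets of 6 values. Of these, 4 had a gap above the 95% critical value of Dixon's test, and chance picks about 1 in 20 sets, which here share animals and genes.

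Cd14 in DOX+AICAR animal 9 was 74.8 TPM, where the other 5 animals of the group had 27.1 to 40.5 TPM. In the same animal the Cd14/Cd68 ratio was 1.79, against 0.663 to 1.01 in the others.

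Cd68 in DOX+AICAR animal 8 was 30.3 TPM, the lowest of its group, where the other 5 animals had 39.3 to 43.7 TPM. The Cd74/Cd14 ratio in DOX+saline animal 3 was 37.8, where the other 5 animals had 21.0 to 27.0.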

How the results depend on the processing

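The calls of Ptprc, Cd68 and Cd14 against saline, and the missing calls of Cd74 and of all 4 genes between the doxorubicin groups, were the same in all 27 alternatives (voom on recovered reads was chosen after seeing the data). Some alternatives leave out an animal of the group not compared. Those cannot move the log2 change, only its SE and p-value. Against saline, quantile normalization shifted the all-gene median by -0.16 (log2) in DOX+saline, where log2 changes were 1.23 for Ptprc, 1.35 for Cd68 and 1.26 for Cd14. Cd74 turned sign with array weights in DOX+saline against saline (0.033) and with median-of-ratios factors in DOX+AICAR against saline (-0.057).

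Genes called between the doxorubicin groups numbered 196, and 16 with only the 12 libraries compared, 321 with quantile normalization and 1058 with array weights; leaving out 1 animal gave 36 to 461. The cause was not tested. Leaving out 1 animal gave log2 ratio differences of -0.11 to 0.12 (Cd68/Ptprc) and -0.24 to 0.085 (Cd14/Ptprc) for DOX+saline against saline. For DOX+AICAR against DOX+saline it gave 0.57 to 0.80 (Cd68/Ptprc), -0.20 to 0.083 (Cd14/Cd68) and -0.40 to -0.27 (Cd74/Cd68), the last past the threshold without DOX+saline animal 6 or DOX+AICAR animal 8 or 9. Cd14/Ptprc for DOX+AICAR against saline ranged from 0.44 to 0.72 and passed with a pseudocount of 1 (0.62), without saline animal 55 and without DOX+AICAR animal 12. No paired analysis was possible because the groups share no animal numbers. Counting error limits Cd68 most, with 108 reads in the lowest library.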
